A study of Homo sapiens with 3 samples.

Results

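The guides described here are the 1000 non-targeting controls of a pooled GeCKO knockout screen in NUGC3 cells, a line established from a human gastric cancer. They were chosen by name, as every guide whose gene entry begins with NonTargeting, and they make up 1000 of the 62916 guides in the deposited tables (1.59%). The remaining 61916 guides are targeting guides, each designed against a gene or a microRNA. This rule used no measured value, although the set was chosen with earlier results of these data known. Each control has an entry of its own and is called here by the number that ends its name, so guide 236 is NonTargetingControlGuideForHuman_236.

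Genomic DNA was taken from cells kept for 14 days in 10 nM RTX and from cells given only the solvent DMSO until day 14. It was also taken from cells of the sample titled DMSO Day0, called day 0 here. RTX is not spelled out in the labels. A protocol line describes the DMSO Day0 group as treated with DMSO for 14 days, against its title, so the groups follow the sample titles. All 3 groups are NUGC3 cells with the same library of guides, and each is 1 library (17344507 reads for RTX, 18805737 for DMSO and 16547572 for day 0). No difference between conditions therefore has a replicate check, and intervals given below cover counting error or the variation between guides, never the variation between cultures.

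A guide RNA directs the nuclease Cas9 to a matching stretch of DNA, where the enzyme cuts, and repair of the cut can inactivate the gene. A non-targeting guide is a sequence designed to match no place in the human genome, so its cells carry Cas9 and a guide but are not expected to be cut or to lose a gene. The abundance of such guides in a growing pool is the usual measure of how far guide counts wander without a knockout, through the sampling of cells at each passage, amplification by PCR and sequencing. They also give a reference for growth that can differ from the average targeting guide, because part of the targeting guides hit genes that cells need.

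The controls were spread widely in every library before any ratio was taken. At day 0 they had between 0 and 1228 reads, with a median of 212.5 and a central 90% from 43.95 to 574.1 reads. In RTX the median control had 241 reads and the central 90% ran from 43.95 to 648. In DMSO the median was 279.5 reads and the central 90% ran from 48 to 776.05. The ratio of the 95th to the 5th percentile was thus 14.7 in RTX, 16.2 in DMSO and 13.1 at day 0, so the set had become somewhat more uneven at day 14 than it was at day 0. Among targeting guides the same ratio was 18.2 in RTX, 19.5 in DMSO and 12.3 at day 0.

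The controls took a larger share of the reads at day 14 than at day 0. They held 279193 reads or 1.61% of the RTX library (95% Clopper-Pearson interval 1.604% to 1.616%), 327049 reads or 1.74% of the DMSO library (1.733% to 1.745%) and 249965 reads or 1.51% of the day 0 library (1.505% to 1.516%). The share of guides, 1.59%, lies between the values for day 14 and day 0. A control averaged 279.2 reads against 275.6 for a targeting guide in RTX, 327.0 against 298.4 in DMSO and 250.0 against 263.2 at day 0. The mean control was 1.013, 1.096 and 0.9496 times the mean targeting guide in RTX, DMSO and day 0, and these intervals cover counting error only, since PCR reads are not independent molecules.

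Few controls were lost from the pool. In RTX 4 controls had no reads (0.40%, against 0.292% of targeting guides), in DMSO 3 (0.30%, against 0.376%) and at day 0 1 (0.10%, against 0.0371%). The controls with fewer than 10 reads numbered 9 in RTX, 8 in DMSO and 9 at day 0, or 0.90%, 0.80% and 0.90% of the set. The corresponding share of targeting guides was 1.10% in RTX and 1.27% in DMSO, against 0.480% at day 0. The count of nearly absent controls was about level over the 3 libraries, while that of targeting guides was higher at day 14.

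Change was measured as the log2 ratio of the authors' normalized reads with a pseudocount of 5, for guides that reached 10 normalized reads in the day 0 library. Of the 1000 controls 991 had such a ratio. The 9 left out had 0 to 31 reads in RTX, 0 to 33 in DMSO and 0 to 8 at day 0. The authors' scaling puts the median of all guides at about 0, so a control with a ratio of 0 kept pace with the typical guide of the library.

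Relative to all guides the controls stood higher at day 14 than at day 0 under both conditions. Their median log2 ratio was 0.19 in DMSO over day 0 (95% order-statistic interval over guides 0.16 to 0.23), the middle 50% ran from -0.11 to 0.49, and 669 of 991 controls (67.5%) were above 0. The median was 0.11 in RTX over day 0 (0.06 to 0.14), the middle 50% ran from -0.21 to 0.41 and 580 controls (58.5%) were above 0. The median was -0.10 in RTX over DMSO (-0.14 to -0.05), the middle 50% ran from -0.46 to 0.25 and 418 controls (42.2%) were above 0. The shift of the set was small beside the differences among its members, since in each comparison 0 lay inside the middle 50%. Scaled to equal library totals instead, the median in RTX over day 0 was 0.048. These 3 comparisons are built from the same 3 libraries and are not independent of each other.

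A 2-fold change of a control was uncommon. Of 991 controls in DMSO over day 0, 35 (3.53%) had a log2 ratio of at least 1, where 2.32% of all 62610 guides did, and 20 (2.02%) had one of at most -1, where 7.52% of all guides did. The counts in RTX over day 0 were 30 controls higher (3.03%, against 3.18% of all guides) and 27 lower (2.72%, against 5.32%). For RTX over DMSO, 42 controls were higher (4.24%, against 7.89%) and 60 lower (6.05%, against 5.43%). The share of controls at or below -1 lay under that of all guides in both ratios to day 0, and the share at or above 1 lay under it in RTX over DMSO. The remaining shares were near those of all guides or, for controls at or above 1 in DMSO over day 0, over them, and none of these differences was tested. Scaled to the median of the controls, DMSO over day 0 had 20 controls at or above 1 and 40 at or below -1. With a pseudocount of 20, the controls at or below -1 numbered 13 in DMSO over day 0 and 16 in RTX over day 0. The shares of all guides were not recomputed under these settings, so such counts cannot be set against the library. Over the 3 comparisons together 839 of the 991 controls (84.7%) stayed within these limits every time, where 79.3% of all guides did, a difference that was not tested.

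Among typical controls, guides 322, 718 and 544 were nearest to the medians of the set in all 3 comparisons. Guide 322 had 112 reads in RTX, 135 in DMSO and 105 at day 0. Guide 718 had 371, 429 and 339 reads in RTX, DMSO and day 0, and guide 544 had 409, 469 and 375. All 3 were highest in DMSO and lowest at day 0, the same order as the total reads of the set and of the libraries. They were picked for lying near the medians, so this order is not a separate result.

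The spread of the controls was several times wider than counting error. Over the 991 controls the log2 ratios had an SD of 0.64 in RTX over DMSO, 0.53 in DMSO over day 0 and 0.56 in RTX over day 0. Poisson counting of the recovered reads would give an SD of 0.15, 0.15 and 0.16 (delta method on the same scale). The observed SD was 4.24, 3.45 and 3.57 times the counting SD, and counting made up only 5.56%, 8.39% and 7.83% of the variance. What is left after taking out the counting variance is an SD of 0.63 in RTX over DMSO, 0.50 in DMSO over day 0 and 0.54 in RTX over day 0. The 2 libraries of day 14 were further apart than either was from day 0.

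Judged control by control, most moved beyond what counting allows. With the exact 95% binomial interval of the 2 read counts centred on the median of the controls, 623 of 991 controls (62.9%) lay outside in RTX over DMSO, 544 (54.9%) in DMSO over day 0 and 559 (56.4%) in RTX over day 0. Counting alone would put about 5% outside. Of all guides, 65.5%, 61.5% and 59.2% lay outside the same limits, so the excess over counting was no smaller in the library as a whole. Centred on the authors' scaling the 2 directions were unequal. For DMSO over day 0, 459 controls lay above their interval and 160 below it (46.3% and 16.1%, against 29.8% and 30.4% of all guides). For RTX over day 0, 357 lay above and 216 below (36.0% and 21.8%, against 29.3% and 28.8%), and in RTX over DMSO 237 lay above and 385 below (23.9% and 38.8%, against 32.7% and 32.5%).

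Taken over all levels of abundance together, the distribution of the controls had longer tails than a normal one. This mixes scarce controls, whose spread was wide, with abundant ones, whose spread was narrower. Scaled to match an SD, the median absolute deviation was 0.53 in RTX over DMSO, 0.44 in DMSO over day 0 and 0.47 in RTX over day 0, below the SD each time. The central 95% of the controls ran from -1.31 to 1.17 in RTX over DMSO, from -0.97 to 1.11 in DMSO over day 0 and from -1.01 to 1.05 in RTX over day 0. As ratios of normalized reads these limits are 0.402 and 2.25, 0.511 and 2.16, and 0.496 and 2.08. The farthest controls reached -4.14 and 3.06 in RTX over DMSO, -3.21 and 2.29 in DMSO over day 0, and -3.18 and 3.26 in RTX over day 0. The lowest values of both RTX comparisons belong to a control with no reads in RTX, guide 791, and depend on the pseudocount.

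The controls with the highest ratios to day 0 in RTX had ordinary or modest abundance at day 0. Guide 236 had 1794 reads in RTX, 232 in DMSO and 182 at day 0. Its log2 ratio was 3.06 in RTX over DMSO and 3.26 in RTX over day 0, the highest of the set in both, but only 0.19 in DMSO over day 0, which is the median of the controls. Guide 135 had 1157 reads in RTX, 260 in DMSO and 178 at day 0, with a log2 ratio of 2.66 in RTX over day 0. Guide 219 had 485, 123 and 86 reads in RTX, DMSO and day 0, and its ratio to day 0 in RTX was 2.42. All 3 were far above their day 0 abundance in RTX and within 0.38 of it on the log2 scale in DMSO. The authors' deposited table for RTX against day 0 gives guide 236 an FDR printed as 0, although it has no gene to knock out.

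A different set of controls was high in DMSO. Guide 303 had 451 reads in RTX, 1535 in DMSO and 278 at day 0, which gave the highest DMSO over day 0 ratio of the set, 2.29. Guide 926 had 92 reads in RTX, 182 in DMSO and 33 at day 0, with a ratio of 2.15. Guide 847 had 92, 339 and 82 reads in RTX, DMSO and day 0, with a ratio of 1.83. Guide 926 was high in both libraries of day 14, with a log2 ratio of 1.35 in RTX over day 0, while guide 847 stood at 0.15 there.

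The other extreme ratios in RTX over DMSO rested on few reads in 1 of the 2 libraries. Guide 472 had 128 reads in RTX, 16 in DMSO and 65 at day 0, and guide 514 had 95, 12 and 52, which gave log2 ratios of 2.78 and 2.67. Their DMSO over day 0 ratios were -1.87 and -1.88. Both were therefore low in DMSO more than they were high in RTX, where the ratios to day 0 were 0.92 and 0.80. On the other side, guide 865 had 16 reads in RTX, 172 in DMSO and 53 at day 0, with a log2 ratio of -2.96 in RTX over DMSO. Guide 205 had 4, 65 and 40 reads in RTX, DMSO and day 0, with a ratio of -2.87. Guide 865 differed from day 0 in both directions, at 1.46 in DMSO and -1.47 in RTX.

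The lowest controls in the ratios to day 0 began at modest abundance. Guide 895 had 35 reads in RTX, 4 in DMSO and 72 at day 0, the lowest DMSO over day 0 ratio of the set at -3.21. Guide 772 had 26, 15 and 66 reads in RTX, DMSO and day 0, with a ratio of -1.96 in DMSO. Guide 53 had 8 reads in RTX, 42 in DMSO and 60 at day 0, with a ratio of -2.33 in RTX over day 0. None of these 3 controls had more than 72 reads at day 0, against a median of 212.5 for the set.

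Several controls were at 0 in a library of day 14, where a fold change is only a bound. The bounds given here take the count in the other library as exact. Guide 791 had 0 reads in RTX, 87 in DMSO and 40 at day 0. Against a floor of 3 reads in the library at 0, it was at least 26.3-fold lower in RTX than in DMSO and at least 13.4-fold lower in RTX than at day 0. It is the most extreme loss among the controls in both ratios of RTX. Guide 257 had 0 reads in RTX, 16 in DMSO and 11 at day 0, at least 4.84-fold lower in RTX than in DMSO. Guides 888 and 900 had 0 reads in DMSO. Guide 888 had 12 reads in RTX and 15 at day 0, at least 5.58-fold lower in DMSO than at day 0, and guide 900 had 19 reads in RTX and 10 at day 0, at least 3.72-fold lower. Guide 967 had 0 reads in RTX, 0 in DMSO and 4 at day 0, and guide 977 had 0 reads in RTX, 5 in DMSO and 0 at day 0, so both were scarce from the start.

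The controls most abundant at day 0 stayed within a 2-fold change. Guide 109, the most abundant control at day 0, had 1712 reads in RTX, 1585 in DMSO and 1228 at day 0. Guide 262 had 931, 876 and 1073 reads in RTX, DMSO and day 0, and guide 599 had 1054, 923 and 1012. Their log2 ratios lay between -0.45 in DMSO over day 0, for guide 262, and 0.47 in RTX over day 0, for guide 109. The authors' deposited tables give those 2 ratios an FDR of 0.0380 and 0.00294. Some scarce controls kept few reads throughout. Guide 457 had 7 reads in RTX, 9 in DMSO and 2 at day 0, and guide 768 had 14, 12 and 2, which is too few to give a change.

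The spread of the controls depended strongly on how abundant a guide was at day 0. The 991 controls were cut into 5 bins of 198 or 199 guides by day 0 reads, with median normalized reads of 84.9, 162, 228, 324 and 507. From the scarcest to the most abundant bin, the SD in RTX over DMSO was 0.98, 0.65, 0.56, 0.49 and 0.38. For DMSO over day 0 it was 0.79, 0.56, 0.42, 0.39 and 0.34, and in RTX over day 0 it was 0.82, 0.60, 0.51, 0.40 and 0.37. With these bins it was lower in each than in the one before it in every comparison, and the scarcest bin was 2.59, 2.35 and 2.19 times as wide as the most abundant. The same fall was seen in RTX over DMSO, a ratio that does not use the day 0 library.

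Counting error fell with abundance to nearly the same degree. In RTX over DMSO the counting SD was 0.23, 0.16, 0.13, 0.11 and 0.09 over the bins, so that the observed SD was 4.22, 4.08, 4.32, 4.52 and 4.30 times the counting SD. For DMSO over day 0 this multiple was 3.38, 3.56, 3.195, 3.62 and 3.83, and in RTX over day 0 it was 3.40, 3.68, 3.78, 3.49 and 4.07. From the scarcest to the most abundant bin the multiple stayed between 4.08 and 4.52 for RTX over DMSO and between 3.195 and 4.07 for the ratios to day 0. With bins by day 0 reads, the variance lay between 10.2 and 20.4 times that of counting in every bin of every comparison. With bins by the mean of the 3 libraries it lay between 9.45 and 19.1 times in all but 2 of the bins. The exceptions were the most abundant bin of RTX over DMSO, at 33.3 times, and that of RTX over day 0, at 26.6 times. Between the fourth and the most abundant of those bins the SD did not fall. It was 0.46 and 0.49 in RTX over DMSO and 0.42 and 0.47 in RTX over day 0. The scaled median absolute deviation did fall between them, from 0.43 to 0.38 in RTX over DMSO and from 0.44 to 0.34 in RTX over day 0. The mean of the 3 libraries includes both libraries of each ratio, so these bins and the ratio are not independent.

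Large changes were more frequent among scarce guides, and this held for all guides as it did for the controls. In RTX over DMSO, the controls with a log2 ratio of at least 1 numbered 22, 13, 3, 3 and 1 from the scarcest to the most abundant bin, and those at -1 or below numbered 33, 12, 8, 5 and 2. The counts in DMSO over day 0 were 25, 7, 2, 1 and 0 higher and 13, 6, 0, 1 and 0 lower. For RTX over day 0 they were 16, 6, 5, 2 and 1 higher and 17, 9, 0, 0 and 1 lower. In RTX over DMSO the scarcest bin thus had 11.1% of its controls at 1 or above and 16.6% at -1 or below, against 16.5% and 13.9% of all guides within the same limits of day 0 reads. The most abundant bin had 0.51% and 1.01% of its controls there, against 2.92% and 0.94% of all guides. The middle bins had 6.57%, 1.52% and 1.52% of their controls at 1 or above, against 10.0%, 6.86% and 4.47% of all guides. At -1 or below they had 6.06%, 4.04% and 2.53% of the controls, against 6.70%, 4.33% and 2.33%. For DMSO over day 0 the shares of the scarcest bin were 12.6% and 6.53% of the controls against 8.28% and 15.1% of all guides, and those of the most abundant bin were 0% and 0% against 0.17% and 3.37%. For RTX over day 0 they were 8.04% and 8.54% of the controls against 8.87% and 12.9% of all guides in the scarcest bin, and 0.51% and 0.51% against 0.71% and 1.5% in the most abundant. In the middle bins of DMSO over day 0, 3.54%, 1.01% and 0.51% of the controls were at 1 or above, against 2.05%, 1.12% and 0.31%. At -1 or below were 3.03%, 0% and 0.51%, against 8.90%, 6.48% and 4.68%. Those of RTX over day 0 had 3.03%, 2.53% and 1.01% at 1 or above, against 3.48%, 2.07% and 1.26%. At -1 or below they had 4.55%, 0% and 0%, against 6.38%, 4.02% and 2.69%. Across the 991 controls the distance of a control from the median of the set correlated with its log2 day 0 reads at a Pearson's r of -0.38 in RTX over DMSO, -0.37 in DMSO over day 0 and -0.33 in RTX over day 0, with a Spearman's rho of -0.29, -0.33 and -0.27. These correlations are across guides of single libraries, and describe the set without a test.

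The median of the controls depended much less on day 0 abundance than their spread did. It was 0.24, 0.13, 0.17, 0.25 and 0.18 in DMSO over day 0 from the scarcest to the most abundant bin. For RTX over DMSO it was -0.05, -0.05, -0.05, -0.20 and -0.14. For RTX over day 0 it was 0.22, 0.12, 0.19, 0.07 and 0.03, and the interval of the most abundant bin, -0.04 to 0.10, includes 0. The ratios to day 0 share the day 0 count with the bins, so the bins and the ratio are not independent there. With bins by the DMSO library instead, the medians of RTX over day 0 were 0.07, 0.08, 0.20, 0.10 and 0.09, without the fall across the bins. With bins by the RTX library, those of DMSO over day 0 were 0.05, 0.10, 0.19, 0.26 and 0.26, an order from low to high. Across the 991 controls Pearson's r of the log2 ratio itself with log2 day 0 reads was -0.04 in RTX over DMSO, 0.003 in DMSO over day 0 and -0.04 in RTX over day 0, and Spearman's rho was -0.04, -0.02 and -0.09.

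The controls were offset from the targeting guides in all 3 comparisons. The median of the controls minus that of 61619 targeting guides was 0.19 in DMSO over day 0 (interval 0.16 to 0.24), 0.11 in RTX over day 0 (0.07 to 0.14) and -0.10 in RTX over DMSO (-0.14 to -0.05). As ratios these offsets are 1.14, 1.08 and 0.931. The median control therefore lay above 65.8% of the targeting guides in DMSO over day 0, above 59.2% in RTX over day 0 and above 42.8% in RTX over DMSO. The intervals cover the variation between controls, and with 1 library a group the offset between conditions has no test.

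The offset had the same sign at nearly every level of abundance. When all guides were cut into deciles of day 0 reads, each holding 82 to 132 controls, the controls lay above the targeting guides in 10 of 10 deciles in DMSO over day 0, by 0.11 to 0.27. They lay above them in 10 of 10 deciles in RTX over day 0 as well, by 0.03 to 0.25. The 3 most abundant deciles of RTX over day 0 had offsets of only 0.05, 0.03 and 0.03. For RTX over DMSO the controls lay below the targeting guides in 9 of 10 deciles, and the offset ran from -0.18 to 0.003. The interval of the control median included the targeting median in 2 deciles of DMSO over day 0, 7 of RTX over day 0 and 6 of RTX over DMSO. Weighted over the deciles by the number of controls, it was 0.20 in DMSO over day 0, 0.13 in RTX over day 0 and -0.10 in RTX over DMSO.

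The controls were also less spread out than targeting guides of like abundance. The SD of the controls was 0.64 in RTX over DMSO, 0.53 in DMSO over day 0 and 0.56 in RTX over day 0, against 0.73, 0.66 and 0.60 for the targeting guides. Targeting guides were the wider set in 9 of 10 deciles of day 0 abundance in RTX over DMSO, in 10 of 10 in DMSO over day 0 and in 8 of 10 in RTX over day 0. The difference was largest in DMSO over day 0, where in the sixth decile the SD was 0.35 for the controls and 0.57 for the targeting guides.

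The tails show on which side the targeting guides exceeded the controls. By construction about 2.5% of the controls lie beyond each of their own outer percentiles. These limits were not centred, so the shares of targeting guides beyond them take in the offset of the medians as well as the width of the spread. In DMSO over day 0, 8.04% of the targeting guides lay below the 2.5th percentile of the controls and 1.52% above the percentile that cuts off their top 2.5%, so the excess was on the side of loss. The shares were 5.16% below and 2.72% above in RTX over day 0. For RTX over DMSO they were 2.51% below and 5.65% above, so the lower tail matched that of the controls and the excess was on the upper side. A comparison that takes the controls as its baseline therefore places more targeting guides on the low side in DMSO over day 0 and on the high side in RTX over DMSO.

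Guides against genes that the cells are taken not to use lay below the controls in both ratios to day 0 and near them in RTX over DMSO. Olfactory receptors are odour receptors of the nasal lining, and 1086 guides against these genes had a ratio. In DMSO over day 0 the controls had a median of 0.19 and the receptor guides one of 0.06 (0.03 to 0.10), so the controls were 0.13 higher. In RTX over day 0 the medians were 0.11 for the controls and -0.01 for the receptor guides (-0.05 to 0.01), a difference of 0.11. In RTX over DMSO they were -0.10 for the controls and -0.07 for the receptor guides (-0.12 to -0.03). The SD was 0.64 for the controls against 0.67 for the receptor guides in RTX over DMSO, 0.53 against 0.53 in DMSO over day 0 and 0.56 against 0.56 in RTX over day 0. The intervals of the control and receptor medians did not overlap in either ratio to day 0, and they overlapped in RTX over DMSO.

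Other targeting classes lay further from the controls. MicroRNA genes encode short regulatory RNAs, and their 6378 guides had medians of 0.01 in RTX over DMSO, -0.03 in DMSO over day 0 and -0.02 in RTX over day 0, which put the controls 0.11 lower, 0.22 higher and 0.13 higher. Cytosolic ribosomal proteins build the machinery of translation and are needed by dividing cells. In DMSO over day 0 the controls lay 0.79 above the 248 guides against these proteins, and 36.3% of those guides were below the 2.5th percentile of the controls. In RTX over day 0 the controls lay 0.13 above them, with 8.06% below that percentile, and in RTX over DMSO 0.60 below them, with 23.8% above the percentile that cuts off the top 2.5% of the controls. Proteasome subunits form the complex that degrades proteins. They were taken as all symbols that begin PSMA, PSMB, PSMC or PSMD followed by a number, so the list may hold genes that are not subunits. This list had 119 guides with a ratio. The controls lay above these by 0.64 in DMSO over day 0 and 0.28 in RTX over day 0, and 0.38 below them in RTX over DMSO. The shares of proteasome guides below the 2.5th percentile of the controls were 31.1% in DMSO over day 0 and 16.8% in RTX over day 0.

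The controls also show how often a guide without a target was called by the variance model that the authors used. For DMSO over day 0, 176 of the 1000 controls were called higher in the authors' deposited table at an FDR under 0.05 (17.6%, against 9.77% of all 62916 guides) and 9 were called lower (0.90%, against 5.84%). The authors' deposited table for RTX over day 0 calls 135 higher (13.5%, against 11% of all guides) and 15 lower (1.5%, against 4.04%). The authors' deposited table for RTX over DMSO calls 83 higher (8.3%, against 13.9%) and 53 lower (5.3%, against 4.29%). The authors' calls of controls fell more often on the higher side in all 3 comparisons. The set was shifted to that side in the ratios to day 0, but to the lower side in RTX over DMSO. All guides were also called higher more often than lower in each comparison. At a stricter FDR under 0.01 the authors' deposited tables call 101 controls higher and 3 lower for DMSO over day 0 (10.1% and 0.30%, against 5.52% and 2.54% of all guides). They call 87 higher and 1 lower for RTX over day 0 (8.7% and 0.10%, against 6.97% and 1.14%), and 58 higher and 16 lower for RTX over DMSO (5.8% and 1.6%, against 9.66% and 1.1%), all in the authors' deposited tables.

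The authors' calls varied less over abundance than the changes past the fold limit, among controls and all guides alike. The authors' deposited table for DMSO over day 0 calls 16.6%, 16.7%, 19.2%, 21.2% and 18.7% of the controls in either direction from the scarcest to the most abundant bin, against 14.9%, 14.3%, 15.3%, 15.5% and 17.3% of all guides within the same limits of day 0 reads. In the authors' deposited table for RTX over day 0 the shares were 16.1%, 17.2%, 15.2%, 13.1% and 13.1% of the controls, against 17.6%, 16.0%, 14.3%, 13.8% and 13.8% of all guides. In that for RTX over DMSO they were 17.1%, 14.1%, 12.6%, 13.6% and 10.6% of the controls, against 20.3%, 18.8%, 18.3%, 17.0% and 17.0% of all guides. In the authors' deposited tables the controls were thus called at a higher share than all guides in every bin of DMSO over day 0 and at a lower share in every bin of RTX over DMSO, and these differences were not tested.

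A count test on the recovered reads gave the 2 ends of what a noise model does to these guides. The test compares 2 libraries, not the conditions. With counting error as the only noise, edgeR's exact test at an adjusted p under 0.05 called 218 controls higher and 375 lower in RTX over DMSO (22.0% and 37.8%, against 31.3% and 30.9% of all guides). It called 435 higher and 143 lower in DMSO over day 0 (43.9% and 14.4%, against 27.7% and 28.3%), and 328 and 185 in RTX over day 0 (33.1% and 18.7%, against 27.1% and 26.4%). With 1 dispersion estimated from the controls themselves, 0.0887, 0.0641 and 0.0670 in RTX over DMSO, DMSO over day 0 and RTX over day 0, the calls among controls were 5 higher and 3 lower, 3 and 3, and 6 and 3. At those dispersions 0.926% and 0.391% of all guides were called higher and lower in RTX over DMSO, 0.129% and 2.07% in DMSO over day 0, and 0.195% and 0.664% in RTX over day 0. The dispersion was set by the same controls, so their low count is not an independent check. It was also 1 value for all levels of abundance, although the spread of the controls fell with day 0 reads. Fitted at the authors' scaling, it takes in the shift of the controls as well as their spread.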

How the data were processed

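The authors deposited 3 guide tables, 1 for each pair of the 3 libraries. Per the submitters' processing notes, MAGeCK 0.5.7 and the build hg19 were used. The matching of reads with guides is not stated in the sources used here. Each guide has 2 values in a table, called control and treatment per the file headers, a deposited signal of abundance that behaves as reads divided by 1 factor per library. The deposited p-values and FDR come from a variance model over 2 single libraries.

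Whole reads were recovered by dividing by the value of 1 read. At least 99.997% of the values of a column came out whole within 0.1, and both tables with a given library gave the same total. Log2 ratios used the deposited signal, a pseudocount of 5 and a minimum of 10 normalized day 0 reads. The pseudocount makes changes of scarce guides look smaller. The counting variance is Poisson, by the delta method. No comparison of conditions was tested. The count test was edgeR 4.0.16 (R 4.3.3), with the authors' scaling and Benjamini-Hochberg adjustment over 62610 guides at 0.05. Other values used Python 3.11.15, numpy 2.4.6, pandas 2.3.3 and scipy 1.17.1, and the statistics were tested on simulated data.

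Named controls were the 3 highest and 3 lowest ratios per comparison, the 3 most and 3 least abundant at day 0, those at 0 reads, and the 3 nearest to the medians. Olfactory receptor, microRNA, ribosomal protein and proteasome guides were taken by symbol. The members and lists were chosen with earlier results of these data known. Alternatives were pseudocounts of 1 and 20, no filter or one of 50 reads, equal totals, scaling to the controls, means, the scaled median absolute deviation, bins by another library or the mean of the 3, an FDR of 0.01 and the count test. Guide sequences were not used here.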

Additional observations from a re-analysis of the deposited data

How the results depend on the processing

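Of 136 recomputed values, 96 kept their direction and stayed within their interval or within 1.5 times. Another 38 moved further and 2 were counted as changes of sign. The 136 include calls of the count test set against counts past the fold, which are unlike measures, and all of these moved. They also include calls at an FDR under 0.01 set against those under 0.05, which cannot be more numerous. For a difference between bins whose main value lay within its margin of 0, a sign change was counted as a move. The 38 therefore include the recomputed bin differences of DMSO over day 0, given below, which also changed sign. The offset from targeting guides kept its sign in all 21 recomputations and left its interval once, at 0.25 in DMSO over day 0 with means. With equal totals the median in RTX over day 0 was 0.048. The ratio of SD to counting SD stayed within its interval in all 15. In RTX over DMSO, DMSO over day 0 and RTX over day 0 the SD was 0.72, 0.57 and 0.61 with a pseudocount of 1, 0.56, 0.46 and 0.49 with 20, and 0.53, 0.44 and 0.47 from the median absolute deviation. With a filter of 50 reads it was 0.60 in RTX over DMSO and 0.53 in RTX over day 0. Binned by the mean of the 3 libraries, the scarcest bin was 1.94 times as wide as the most abundant in RTX over DMSO and 1.72 times in RTX over day 0. The median of the scarcest minus that of the most abundant bin was 0.19 in RTX over day 0, and -0.13 with bins by the mean and -0.013 with bins by the DMSO library. In DMSO over day 0 it was 0.06, and -0.35 with bins by the mean and -0.21 with bins by the RTX library. The cause was not tested, except that day 0 counts enter both the ratio and the day 0 bins. The mean of the 3 libraries also includes both libraries of each ratio.

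A pseudocount of 20 left 13 controls at or below -1 in DMSO over day 0 and 16 in RTX over day 0. Scaled to the controls, DMSO over day 0 had 20 at 1 or above and 40 at -1 or below. Shares of all guides were not recomputed under either of these settings. The count test with counting error only called 218 higher and 375 lower, 435 and 143, and 328 and 185 controls in RTX over DMSO, DMSO over day 0 and RTX over day 0, and with the controls' dispersion 5 and 3, 3 and 3, and 6 and 3. At an FDR under 0.01 in the authors' deposited tables, 101 controls were higher and 3 lower in DMSO over day 0, 87 and 1 in RTX over day 0, and 16 lower in RTX over DMSO. No paired analysis was possible because each group is 1 library. Few reads limit the scarcest bin of the controls most.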

Other observations

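The controls are numbered from 1 to 1000, and blocks of 100 consecutive numbers, each with 97 to 100 ratios, were compared as a description of the set. In DMSO over day 0 the median log2 ratio of a block lay between 0.06 and 0.30, above 0 in all 10 blocks. In RTX over day 0 it lay between 0.0003 and 0.18, and in RTX over DMSO between -0.24 and 0.01. The median day 0 abundance of a block ran from 202 to 263 normalized reads. The shift of the controls was thus not carried by a few blocks in DMSO over day 0, while in the comparisons with RTX some blocks were near 0.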
